A study of Caenorhabditis elegans with 24 samples.

Results

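The genes described here encode the subunits of the proteasome of Caenorhabditis elegans. They were chosen by name, as the genes whose symbol starts with pas, pbs, rpn or rpt followed by a number, and 33 of the 17118 genes with a probe set of their own met that rule. The core particle is represented by 14 genes, 7 of its alpha ring (pas) and 7 of its beta ring (pbs), and the regulatory particle by 19 genes, 6 ATPases (rpt) and 13 non-ATPase subunits (rpn). Where a gene had several probe sets, the one with the highest mean over all arrays was used, which concerned 6 of the 33 genes. All 33 were bright enough to be among the 12277 genes tested.

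Whole wild-type (N2) worms were grown at 20 °C on bacteria carrying double-stranded RNA for RNA interference (RNAi), in which the worm eats RNA that lowers the matching transcript. The groups were TOR RNAi fasted and TOR RNAi fed worms (3 arrays each), Rheb RNAi fasted and Rheb RNAi fed worms (4 arrays each), and control RNAi fasted and control RNAi fed worms (5 arrays each). TOR (let-363) is the nutrient-sensing kinase that promotes growth, and Rheb (rheb-1) is the small GTPase that activates it. Fasting lasted 48 h, fed worms ate freely, and every group was collected on day 4 of adulthood, so all values describe adult worms on RNAi plates. RNAi lowers a transcript without removing the gene. The series addresses the response to fasting and what a loss of Rheb or TOR activity does to it.

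The proteasome destroys proteins that carry chains of ubiquitin. Its core particle is a barrel in which alpha rings form the gates at the ends and beta rings form the chamber with the cutting sites. The regulatory particle caps the barrel: its non-ATPase subunits recognise the substrate and take off the ubiquitin, and its ring of AAA ATPases unfolds the chain and threads it into the core. In worms and mammals many of the genes respond together when proteasome activity is blocked, through the transcription factor SKN-1A in worms and its relative NRF1 in mammals. TOR has been tied to proteasome gene expression and activity in mammalian cells and yeast.

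A level below is a log2 intensity, and a change is a difference between 2 group means of log2 intensity with its standard error (SE). The words rose, fell, higher and lower stand for changes with limma's Benjamini-Hochberg adjusted p under 0.05 over all 12277 genes, and such changes are said to be called. The labels call the arrays of a group biological replicates. Array medians lay between 46.9 and 58.0 on the intensity scale. let-363 was lower on TOR RNAi by both of its probe sets, by -1.45 and -1.93 in fed worms, while rheb-1 was lower on Rheb RNAi by its dimmer probe set alone, by -2.55 in fed worms, against an uncalled -0.30 for the brighter one. Moving every array to a common median put the median change over all genes at -0.09, against 0.04 as deposited, in the comparison of fed TOR RNAi with fed control worms, so small changes there depend on the scaling. The array data come from whole worms, in which fewer cells of a type and less RNA per cell cannot be told apart.

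The subunit transcripts changed little. Their probe sets were bright, with a median mean level of 11.5 and 7.39 over all genes tested, but probe sets bind with different strength, so these levels do not compare the abundance of transcripts. The probe set of rpn-6.2, a paralog of the lid subunit gene rpn-6.1, had a mean of 6.55, and those of the other 32 genes were at 9.89 or above. Within groups the median SD of a subunit gene was 0.180, against 0.285 over all genes tested. Over the 7 comparisons of 2 groups there were 9 calls, which fell on 7 different genes, and every one of them was a rise. rpn-10 was called lower in fed TOR RNAi worms once the arrays were moved to a common median, and pbs-1 and rpt-6 were called lower in fits that paired the arrays of Rheb and control RNAi, as given below. Without pairing of arrays by number, the other 26 genes were called in none of the 7. With it, 11 subunit genes rose with fasting on control RNAi and 8 on Rheb RNAi (22.7% and 17.7% of all genes tested). Against control, 5 then rose in fed and 6 in fasted Rheb RNAi worms (29.1% and 24.3%). Apart from rpn-6.2, no change exceeded 0.54 in size.

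In each same-numbered pair of arrays the mean of both particles was above its fed level in fasted worms, on every plate. For each array the deviation of each gene from its own mean over the 24 arrays was averaged over a particle. Fasted minus fed, the core mean was 0.152, 0.155 and 0.165 in the 3 TOR RNAi pairs, 0.156, 0.127, 0.0894 and 0.131 in the 4 Rheb RNAi pairs, and 0.113, 0.310, 0.102, 0.125 and 0.256 in the 5 control pairs. The regulatory particle mean was 0.203, 0.0713 and 0.211 on TOR RNAi, 0.309, 0.169, 0.287 and 0.261 on Rheb RNAi, and 0.0465, 0.305, 0.0471, 0.0935 and 0.229 on control RNAi. All 12 pairs were thus above 0 for both particles. The median difference over all genes tested was smaller in nearly every pair, at 0.0677 to 0.0795 on TOR RNAi, 0.0655 to 0.0794 on Rheb RNAi and -0.0004 to 0.0547 on control RNAi, and only the regulatory mean of TOR RNAi pair 2, at 0.0713, was below its own pair's 0.0795. Because the members of a particle are not replicates, no test was made on these means.

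**Figure D1:**
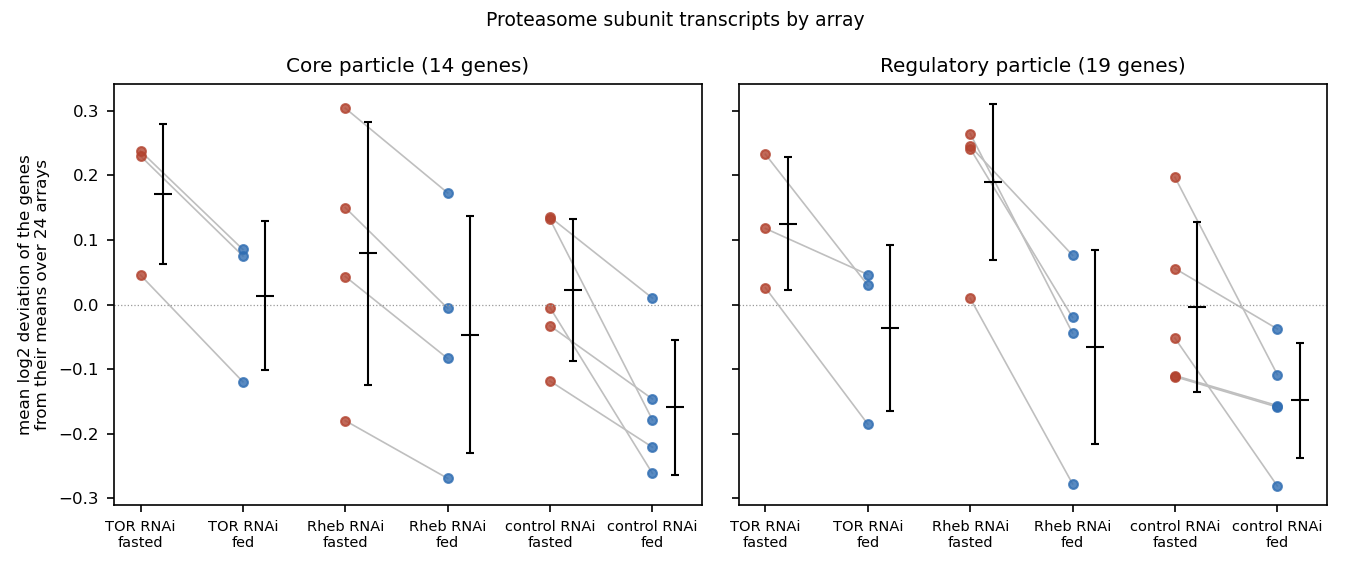
Mean log2 deviation of the 14 core genes (left) and the 19 regulatory particle genes (right) on each of 24 arrays, with points for arrays, grey lines joining fasted and fed arrays of the same number, and bars for the mean ± SD of a group. Every line slopes down towards the fed array, and the lowest group mean for both particles is that of fed control worms, at -0.159 for the core and -0.148 for the regulatory particle.

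Fasted control worms had more rpt-2 transcript than fed control worms, and no other subunit gene was called. rpt-2 encodes one of the ATPases that open and feed the core. Its level was 11.59, 11.77, 11.54, 11.60 and 11.58 on the fasted arrays and 11.32, 11.42, 11.15, 11.27 and 10.91 on the fed arrays. The fasted arrays all lay above the fed ones, for this subunit gene alone, as was the case for 6.6% of all genes tested. The rise was 0.40 ± 0.11, a 1.32-fold change (limma's adjusted p = 0.016), and a second rpt-2 probe set rose by 0.43 in a fit of all probe sets (limma's adjusted p = 0.037). With the arrays moved to a common median the adjusted p was 0.051. The 1 call among 33 genes stands against 11% of all genes tested that rose and 7.91% that fell.

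Among core genes in control worms, the alpha subunit gene pas-5 and the beta subunit gene pbs-5, whose human counterpart PSMB5 carries the chymotrypsin-like site, had the smallest p, followed by pbs-2, whose human counterpart PSMB7 carries the trypsin-like site. pas-5 was at 11.83, 12.19, 11.87, 12.40 and 12.39 in fasted and 11.65, 11.60, 11.63, 12.09 and 11.96 in fed control worms, a difference of 0.35 ± 0.14 (limma's adjusted p = 0.087). pbs-5 was at 11.15, 11.31, 11.02, 11.20 and 11.17 in fasted and 11.08, 10.92, 10.83, 10.98 and 10.76 in fed control worms, a difference of 0.25 ± 0.10 (limma's adjusted p = 0.093). The ranges overlapped for both genes, although each fasted array was above the fed array of its number. pbs-2 was at 11.63, 11.76, 11.28, 11.42 and 11.63 in fasted and 11.48, 11.51, 11.05, 11.20 and 11.03 in fed control worms, again with overlapping ranges and a difference of 0.29 ± 0.15 (limma's adjusted p = 0.19). In the regulatory particle, rpn-11, the deubiquitinase that takes the ubiquitin chain off, differed by 0.32 ± 0.15 (limma's adjusted p = 0.16). Its levels were 11.22, 11.36, 10.79, 11.11 and 10.96 in fasted and 10.91, 10.86, 10.85, 10.83 and 10.40 in fed control worms. The number 3 fasted array lay below its fed partner, unlike the other 4 pairs, and the number 5 fed array was the lowest of all. The lid gene rpn-5 was at 11.65, 11.99, 11.46, 11.71 and 11.60 in fasted and 11.45, 11.58, 11.40, 11.55 and 11.29 in fed control worms, a difference of 0.23 ± 0.12 with overlapping ranges (limma's adjusted p = 0.20).

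The arrays of control and Rheb RNAi worms deviated together by number, and a fit with the number as a block called more genes. With that pairing 11 subunit genes rose in fasted control worms and none fell, against 22.7% of all genes tested that rose and 15.5% that fell. They were 5 core genes (pas-5, pbs-1, pbs-2, pbs-4 and pbs-5) and 6 regulatory genes (rpn-2, rpn-3, rpn-5, rpn-11, rpt-2 and rpt-3). The paired adjusted p from limma was 0.00048 for rpt-2, 0.0023 for pas-5, 0.014 for pbs-5, 0.015 for rpn-11, 0.016 for pbs-2 and 0.021 for rpn-5. Without the pairing, 31 of the 33 genes had a difference above 0, against 54.9% of all genes tested, with a median of 0.14 over the subunit genes and 0.04 over all genes. pbs-3, at 0.00, and rpn-6.2, at -0.18, were the exceptions. In 15 of the 33 genes the fasted array was above the fed one in all 5 pairs, against 25.2% of all genes tested.

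In fasted Rheb RNAi worms no subunit gene was called against fed Rheb RNAi worms, where 3.23% of all genes tested rose and 8.67% fell. All 33 differences were above 0, against 61.7% of all genes tested. In none did the fasted and fed arrays stay apart, as they did with the fasted ones above for 6.5% of all genes tested, while 27 genes were above in all 4 pairs, against 31.3% of all genes tested. In that comparison 6 of the 33 genes had an unadjusted p under 0.05 in limma, against 3139 of the 12277 genes tested. All 6 were in the regulatory particle. rpn-9, a lid subunit gene, was at 11.36, 11.29, 11.15 and 11.48 in fasted and 10.97, 11.05, 10.57 and 11.25 in fed Rheb RNAi worms, a difference of 0.36 ± 0.14 (limma's adjusted p = 0.091). rpt-2 was at 11.79, 11.81, 11.56 and 11.79 in fasted and 11.41, 11.59, 11.28 and 11.42 in fed Rheb RNAi worms, a difference of 0.31 ± 0.13 (limma's adjusted p = 0.12). Both genes overlapped between the groups only through low number 3 arrays and 1 high fed array. The second rpt-2 probe set rose by 0.54 in a fit of all probe sets (limma's adjusted p = 0.028). rpn-1, a large scaffold subunit at the base of the particle that holds ubiquitin shuttle proteins, was at 11.11, 11.15, 10.63 and 10.62 in fasted and 10.54, 11.04, 9.95 and 10.25 in fed Rheb RNAi worms. The number 3 fed array was the lowest, and the difference was 0.43 ± 0.19 (limma's adjusted p = 0.16).

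The core genes with the smallest p in that comparison were pbs-2, pas-4 and pas-5, the pas genes both of the alpha ring. pbs-2 was at 11.77, 11.69, 11.07 and 11.65 in fasted and 11.43, 11.63, 10.95 and 11.27 in fed Rheb RNAi worms (0.23 ± 0.17, limma's adjusted p = 0.42). pas-4 was at 11.94, 11.70, 11.60 and 11.98 in fasted and 11.84, 11.56, 11.33 and 11.81 in fed Rheb RNAi worms (0.17 ± 0.13, limma's adjusted p = 0.45). pas-5 was at 12.23, 12.33, 12.19 and 12.64 in fasted and 12.17, 12.01, 11.95 and 12.46 in fed Rheb RNAi worms (0.20 ± 0.16, limma's adjusted p = 0.45). All 3 overlapped widely, with each fasted array above its fed partner. With the pairing by number, 8 regulatory genes rose in fasted Rheb RNAi worms (rpn-1, rpn-2, rpn-3, rpn-6.1, rpn-9, rpn-11, rpn-13 and rpt-2) and no core gene was called, against 17.7% of all genes tested that rose and 13.4% that fell. The paired adjusted p from limma was 0.0075 for rpn-9, 0.0096 for rpt-2 and 0.025 for rpn-1. The 3' to middle difference of 5 worm control transcripts, a sign of RNA quality, was highest of all 24 arrays on the number 3 fed Rheb RNAi array, at 1.52 on the log2 scale against 0.709 on the lowest array, and that array also had the lowest core mean of all, at -0.269. Its part in these differences was not tested.

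Fasting on TOR RNAi gave no called subunit gene either, where 1.08% of all genes tested rose and 5.16% fell. Of the 33 genes, 32 had a difference above 0, against 62.4% of all genes tested. In 9 genes the fasted and fed arrays did not overlap and the fasted ones were above, which was the case for 12.6% of all genes tested. In 21 genes all 3 pairs had the fasted array above, against 33.6% of all genes tested. pas-3, of the alpha ring, was at 12.15, 12.33 and 12.16 in fasted and 11.86, 11.96 and 12.03 in fed TOR RNAi worms, a difference of 0.26 ± 0.11 without overlap (limma's adjusted p = 0.23). pbs-5 was at 11.37, 11.30 and 11.15 in fasted and 11.13, 11.01 and 10.99 in fed TOR RNAi worms (0.23 ± 0.13, limma's adjusted p = 0.47). pas-4 was at 11.86, 11.93 and 11.78 in fasted and 11.64, 11.68 and 11.51 in fed TOR RNAi worms (0.25 ± 0.15, limma's adjusted p = 0.51). Neither pbs-5 nor pas-4 overlapped between the feeding states.

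In the regulatory particle, rpn-10, a ubiquitin receptor, was at 11.10, 10.97 and 10.93 in fasted and 10.80, 10.69 and 10.65 in fed TOR RNAi worms (0.29 ± 0.13, limma's adjusted p = 0.28). rpn-9 was at 11.41, 11.62 and 11.43 in fasted and 11.28, 11.38 and 11.06 in fed TOR RNAi worms (0.24 ± 0.16, limma's adjusted p = 0.54). Both genes were free of overlap. The lid gene rpn-12 was at 11.31, 11.21 and 11.07 in fasted and 11.13, 10.95 and 10.91 in fed TOR RNAi worms and did overlap (0.20 ± 0.12, limma's adjusted p = 0.51). rpt-2, called on control RNAi, was here at 11.69, 11.41 and 11.42 in fasted and 11.71, 11.52 and 11.25 in fed TOR RNAi worms, a difference of 0.01. The pairing by number added no call on TOR RNAi, where 5.96% of all genes tested then rose and 8.45% fell.

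**Figure D2:**
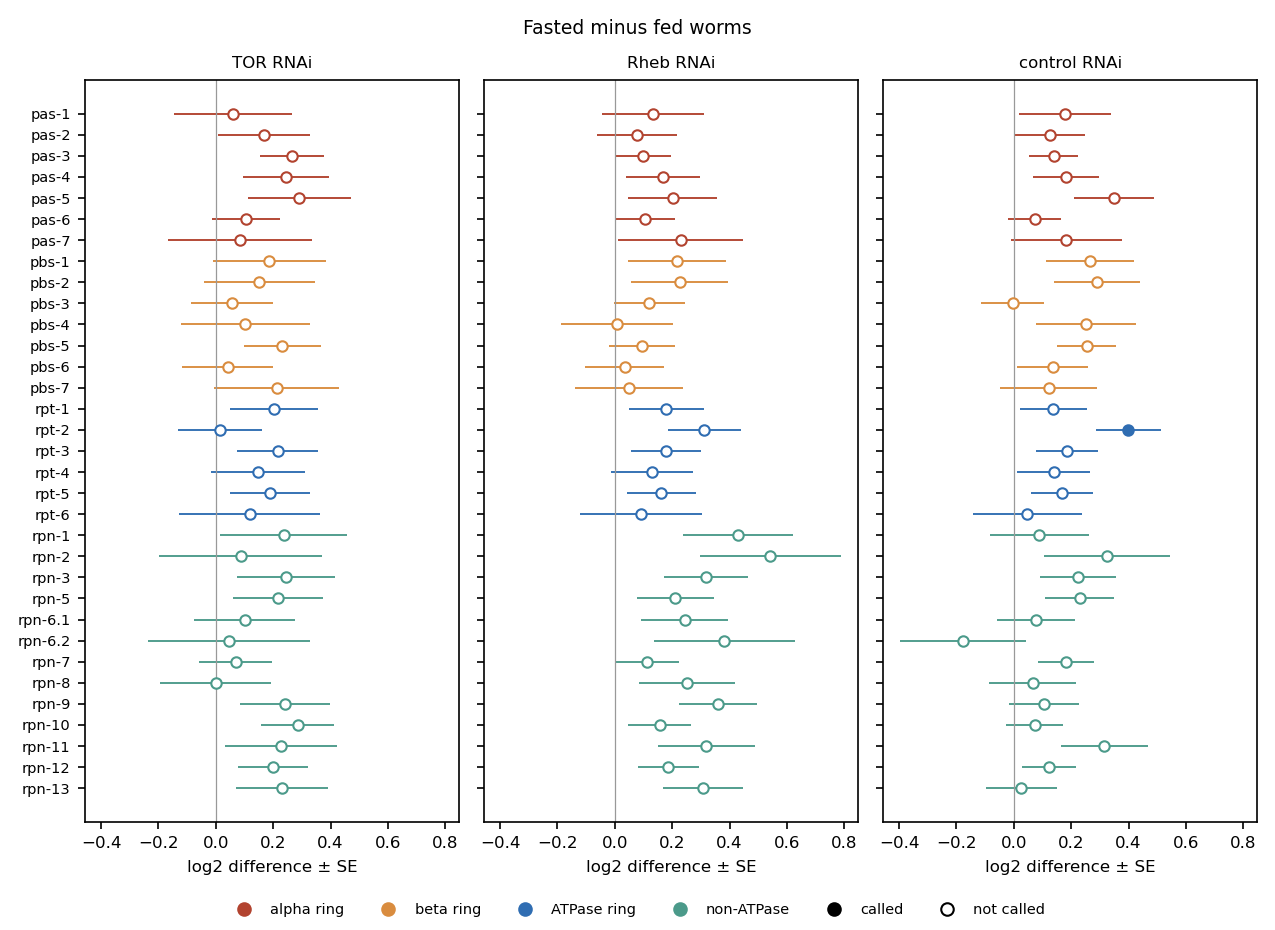
Log2 difference ± SE, fasted minus fed, of each of the 33 subunit genes on TOR, Rheb and control RNAi, coloured by ring, with filled points for called genes. Nearly all points lie to the right of 0, and the filled point is rpt-2 on control RNAi at 0.40.

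The fasting responses were set against each other by interaction terms. No subunit gene was called between Rheb and control RNAi (4.89% of all genes tested), between TOR and control RNAi (2.44%) or between TOR and Rheb RNAi (0.318%) in limma. At an unadjusted p under 0.05 there were 0, 1 and 0 genes, against 2072, 1419 and 533 of the 12277 genes tested. The 1 was rpt-2 at -0.39 ± 0.19 for TOR minus control RNAi (limma's adjusted p = 0.43). With the pairing by number again none was called, against 17.5%, 9.11% and 1.28% of all genes tested in the same order. The widest 95% intervals of these response differences, over the 32 genes other than rpn-6.2, lay between -0.79 and 0.90 for Rheb minus control, between -0.98 and 0.73 for TOR minus control, and between -1.23 and 0.76 for TOR minus Rheb RNAi. These intervals were wide beside the fasting differences themselves.

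Lowering TOR raised 2 subunit genes in fed worms, pas-5 and rpn-6.1, and 5 in fasted worms, pas-2, pas-3, pas-5, rpn-6.1 and rpn-9. In fed worms 19.9% of all genes tested rose and 13.4% fell against control, and in fasted worms 14.9% rose and 10.2% fell. No subunit gene fell in either state. The 3 called pas genes belong to the alpha ring, whose 7 genes had a median of 0.34 in fasted worms with all 7 above 0. The median was -0.01 for the beta ring, with 3 of 7 above 0. It was 0.07 for the ATPases and 0.15 for the non-ATPase subunits. In fed worms the medians lay closer together, at 0.24 for the alpha ring, 0.08 for the beta ring with 4 of 7 above 0, 0.19 for the ATPases and 0.13 for the non-ATPase subunits. Over both particles 22 genes in fasted and 24 in fed worms were above 0, against 52.5% and 52.7% of all genes tested.

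pas-5 was called in both feeding states. In fed worms its levels were 12.29, 12.30 and 12.39 on TOR RNAi and 11.65, 11.60, 11.63, 12.09 and 11.96 on control RNAi, without overlap. It was 0.54 ± 0.16 higher, a 1.46-fold change (limma's adjusted p = 0.013). In fasted worms its levels were 12.68, 12.65 and 12.52 on TOR RNAi and 11.83, 12.19, 11.87, 12.40 and 12.39 on control RNAi, again without overlap. It was 0.48 ± 0.16 higher (limma's adjusted p = 0.032). On control RNAi the number 4 and 5 arrays were the highest in both feeding states.

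pas-2 was at 11.33, 11.45 and 11.17 on TOR RNAi and at 10.83, 10.90, 10.71, 11.07 and 11.001 on control RNAi in fasted worms, and it was 0.41 ± 0.14 higher (limma's adjusted p = 0.039). In fed worms it was at 11.17, 11.17 and 11.11 on TOR RNAi and 10.69, 10.65, 10.73, 11.03 and 10.80 on control RNAi, a difference of 0.37 ± 0.14 (limma's adjusted p = 0.052). The TOR RNAi arrays lay above every control array in both feeding states. pas-3 was at 12.15, 12.33 and 12.16 on TOR RNAi and 11.81, 11.74, 11.90, 11.89 and 11.92 on control RNAi in fasted worms, and it was 0.36 ± 0.10 higher (limma's adjusted p = 0.011). In fed worms it was at 11.86, 11.96 and 12.03 on TOR RNAi and 11.67, 11.65, 11.69, 11.77 and 11.80 on control RNAi, a difference of 0.24 ± 0.10 (limma's adjusted p = 0.071). For this gene too, no control array reached a TOR RNAi array.

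Of the non-ATPase genes, rpn-6.1 encodes a lid subunit that clamps the core and the regulatory particle together and is known in worms for the long life of animals without a germline. In fed worms it was at 11.94, 12.05 and 11.64 on TOR RNAi and 11.23, 11.50, 11.39, 11.80 and 11.32 on control RNAi, and it was 0.43 ± 0.16 higher (limma's adjusted p = 0.040). In fasted worms it was at 12.06, 12.06 and 11.81 on TOR RNAi and 11.19, 11.59, 11.61, 11.71 and 11.55 on control RNAi, and it was 0.45 ± 0.16 higher (limma's adjusted p = 0.039). The groups were apart in fasted worms, while in fed worms the lowest TOR RNAi array was below the highest control array. rpn-9 was at 11.41, 11.62 and 11.43 on TOR RNAi and 10.90, 11.14, 10.86, 11.06 and 11.27 on control RNAi in fasted worms. The groups did not overlap and it was 0.44 ± 0.14 higher (limma's adjusted p = 0.026). rpn-6.2 was at 6.84, 7.11 and 6.54 on TOR RNAi and 5.34, 7.02, 6.04, 6.43 and 5.94 on control RNAi in fasted worms, with overlap and a difference of 0.67 ± 0.25 (limma's adjusted p = 0.054).

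In fed worms the next regulatory genes by p were rpn-7, of the lid, and rpt-3, an ATPase. rpn-7 was at 12.03, 11.86 and 11.71 on TOR RNAi and 11.51, 11.59, 11.69, 11.66 and 11.47 on control RNAi (0.28 ± 0.11, limma's adjusted p = 0.059). rpt-3 was at 11.99, 12.17 and 11.98 on TOR RNAi and 11.60, 11.61, 11.80, 11.95 and 11.77 on control RNAi (0.30 ± 0.13, limma's adjusted p = 0.068). Neither overlapped between the plates. In all, 7 subunit genes in fed worms and 9 in fasted worms had every TOR RNAi array above every control array, against 20.7% and 14.8% of all genes tested, and 1 gene, rpn-10 in fed worms, had every TOR RNAi array below, against 16.3% of all genes tested.

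The calls under TOR RNAi rested on few arrays. In fed worms pas-5 was not called without TOR RNAi array 3, and rpn-6.1 not without control array 1, 2, 3 or 5 or TOR RNAi array 1 or 2. In fasted worms pas-2, pas-5, rpn-6.1 and rpn-9 were each lost without control array 1 or 3. Control array 2 did the same for pas-2 and rpn-6.1, TOR RNAi array 1 for pas-2, pas-5 and rpn-6.1, and TOR RNAi array 3 for pas-5 and rpn-9. Without fasted TOR RNAi array 2, which has the second highest 3' to middle difference, at 1.33, none of the 5 genes was called. None was called either in a fit of the fasted TOR RNAi and fasted control arrays alone. With the arrays moved to a common median 2 remained. Shares of all genes tested are not given for these settings, so the losses are no result about the subunit genes alone. Over single arrays left out, pas-5 in fasted worms stayed between 0.41 and 0.55. The part of RNA quality in these rises was not tested.

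Some subunit genes of both particles had values on the other side of 0 under TOR RNAi, though none was called. pbs-1, whose human counterpart PSMB6 carries the caspase-like site, was at 11.66, 11.51 and 11.11 on TOR RNAi and 11.88, 12.03, 11.62, 11.64 and 11.45 on control RNAi in fed worms, a difference of -0.30 (limma's adjusted p = 0.20). In fasted worms it was at 11.79, 11.46 and 11.59 on TOR RNAi and 12.19, 12.32, 11.84, 11.92 and 11.69 on control RNAi, a difference of -0.37 (limma's adjusted p = 0.12). The ranges overlapped in both states. rpt-6, an ATPase, differed by -0.42 in fed and -0.35 in fasted worms (limma's adjusted p = 0.14 and 0.25). The number 3 arrays of control and Rheb RNAi worms were low for rpt-6, at 9.47 and 9.40 in fasted and 9.49 and 9.38 in fed worms, while the other control and Rheb RNAi arrays lay between 9.83 and 10.37. rpn-10 differed by -0.25 in fed worms (limma's adjusted p = 0.094). It was called lower there, by -0.37, once the arrays were moved to a common median (limma's adjusted p = 0.037). Its second, dimmer probe set did not bear out a fall. In a fit of all probe sets it differed by -0.02 in fed and 0.15 in fasted TOR RNAi worms (limma's adjusted p = 0.93 and 0.48). By contrast pbs-7, a beta subunit gene, had differences of 0.41 (fed) and 0.50 (fasted worms) without a call, and its second probe set rose by 0.43 and by 0.44 in a fit of all probe sets (limma's adjusted p = 0.025 and 0.030).

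Lowering Rheb gave no called subunit gene in fed worms against control, where 19.2% of all genes tested rose and 13.9% fell. At an unadjusted p under 0.05 in limma there was 1 subunit gene, pas-5, against 5239 of the 12277 genes tested. Of the 33 differences 26 were above 0, against 51.6% of all genes tested. pas-5 was at 12.17, 12.01, 11.95 and 12.46 on Rheb RNAi and 11.65, 11.60, 11.63, 12.09 and 11.96 on control RNAi (0.36 ± 0.15, limma's adjusted p = 0.065). pas-3 was at 11.98, 11.87, 11.74 and 12.00 on Rheb RNAi and 11.67, 11.65, 11.69, 11.77 and 11.80 on control RNAi (0.18 ± 0.09, limma's adjusted p = 0.13). pas-3 overlapped through the low number 3 Rheb RNAi array, and pas-5 through the number 2 and 3 arrays. pbs-3, of the beta ring, was at 11.54, 11.53, 11.29 and 11.79 on Rheb RNAi and 11.68, 11.67, 11.81, 11.91 and 11.59 on control RNAi (-0.19 ± 0.12, limma's adjusted p = 0.23), with wide overlap.

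In the regulatory particle of fed worms, rpt-3 was at 11.86, 11.94, 11.80 and 12.24 on Rheb RNAi and 11.60, 11.61, 11.80, 11.95 and 11.77 on control RNAi (0.21 ± 0.12, limma's adjusted p = 0.16). rpt-2 was at 11.41, 11.59, 11.28 and 11.42 on Rheb RNAi and 11.32, 11.42, 11.15, 11.27 and 10.91 on control RNAi (0.21 ± 0.12, limma's adjusted p = 0.19). The ranges of both overlapped. rpn-7 was the 1 gene without overlap, at 11.77, 11.73, 11.75 and 11.79 on Rheb RNAi and 11.51, 11.59, 11.69, 11.66 and 11.47 on control RNAi (0.18 ± 0.10, limma's adjusted p = 0.21), which held for 13.1% of all genes tested. With the pairing by number, 5 genes rose (pas-3, pas-5, pbs-4, pbs-7 and rpt-3) and 2 fell (pbs-1 and rpt-6), against 29.1% of all genes tested that rose and 23.7% that fell. The paired fit put pas-5 at 0.41 ± 0.09 (limma's adjusted p = 0.00067).

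In fasted worms 1 gene, rpn-6.2, rose on Rheb RNAi, against 10.5% of all genes tested that rose and 9.04% that fell. Differences were above 0 in 29 genes, against 57.4% of all genes tested, and in no gene were the arrays of the 2 plates apart, as they were with Rheb RNAi above for 7.67% of all genes tested. rpn-6.2 was at 7.16, 7.20, 6.58 and 6.82 on Rheb RNAi and 5.34, 7.02, 6.04, 6.43 and 5.94 on control RNAi. The number 1 control array was low and the number 2 control array high, so the groups overlapped. The rise was 0.78 ± 0.23, a 1.72-fold change (limma's adjusted p = 0.019). It was not called without fasted control array 1, at 0.58, without fasted Rheb RNAi array 1 or 2, or in a fit of the compared groups alone. rpn-9 was at 11.36, 11.29, 11.15 and 11.48 on Rheb RNAi and 10.90, 11.14, 10.86, 11.06 and 11.27 on control RNAi (0.27 ± 0.13, limma's adjusted p = 0.14). rpn-8, a lid gene, was at 12.21, 12.12, 12.00 and 11.71 on Rheb RNAi and 11.74, 11.89, 11.79, 11.58 and 11.58 on control RNAi (0.29 ± 0.16, limma's adjusted p = 0.21). Both genes were above control at every shared number, with overlap between the groups.

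The core genes with the smallest p in fasted Rheb RNAi worms were all of the alpha ring. pas-3 was at 12.05, 11.96, 11.91 and 12.06 on Rheb RNAi and 11.81, 11.74, 11.90, 11.89 and 11.92 on control RNAi (0.14 ± 0.09, limma's adjusted p = 0.31). pas-5 was at 12.23, 12.33, 12.19 and 12.64 on Rheb RNAi and 11.83, 12.19, 11.87, 12.40 and 12.39 on control RNAi (0.21 ± 0.15, limma's adjusted p = 0.35). pas-7 was at 11.67, 11.51, 11.19 and 11.91 on Rheb RNAi and 11.50, 11.42, 11.27, 11.46 and 10.82 on control RNAi (0.27 ± 0.21, limma's adjusted p = 0.40). All 3 overlapped. With the pairing by number, 6 genes rose (pas-5, rpn-3, rpn-6.1, rpn-6.2, rpn-9 and rpt-3) and pbs-1 fell, against 24.3% of all genes tested that rose and 17% that fell.

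**Figure D3:**
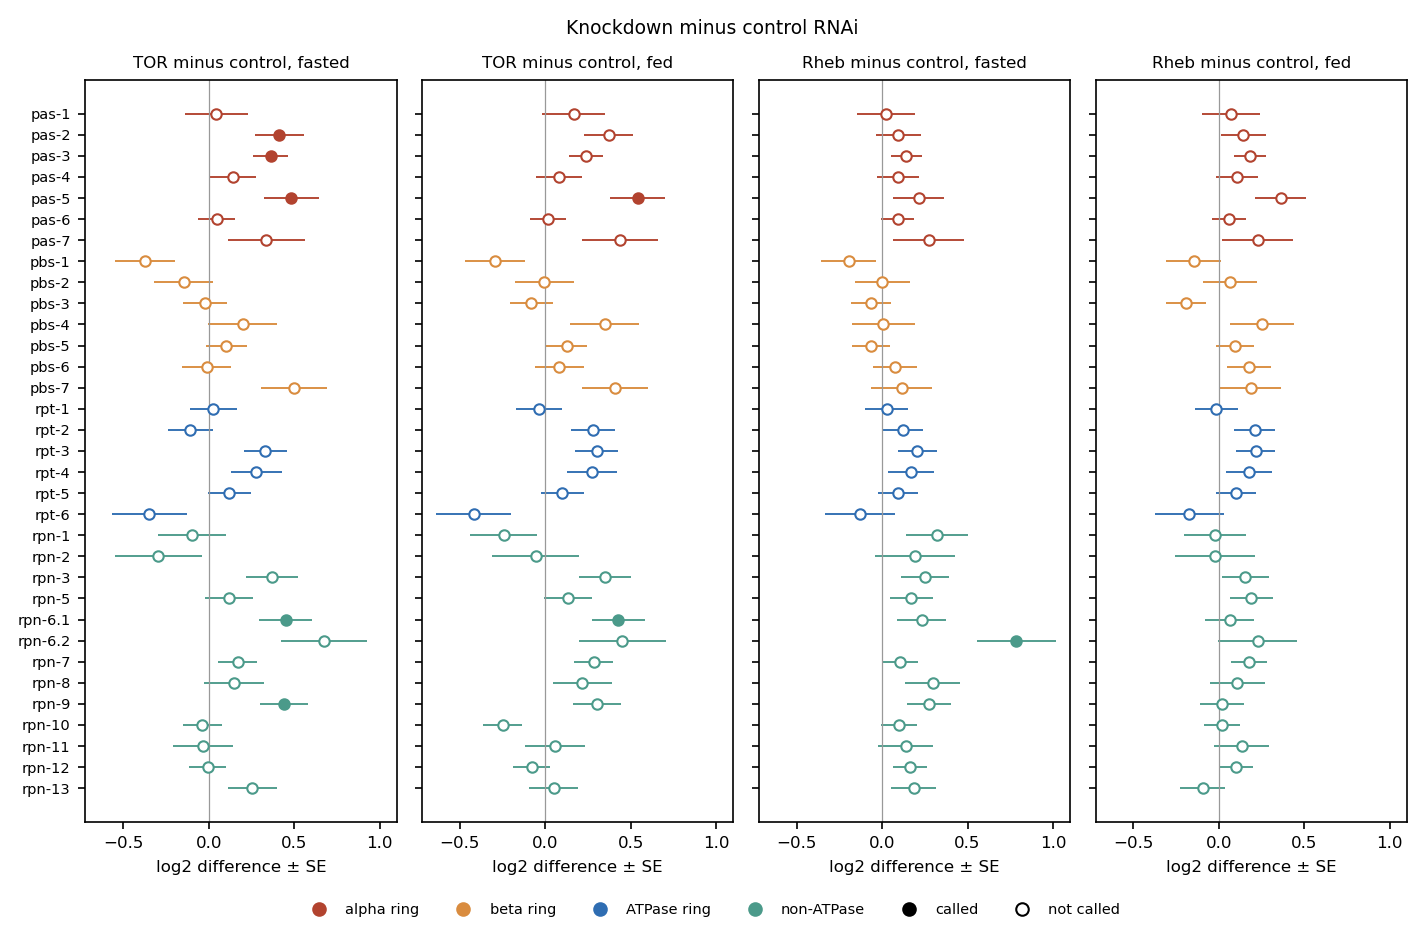
Log2 difference ± SE of each of the 33 subunit genes, knockdown minus control RNAi, in fasted and fed worms, coloured by ring, with filled points for called genes. The filled points are pas-2, pas-3, pas-5, rpn-6.1 and rpn-9 in fasted and pas-5 and rpn-6.1 in fed TOR RNAi worms, and rpn-6.2 in fasted Rheb RNAi worms.

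**Figure D4:**
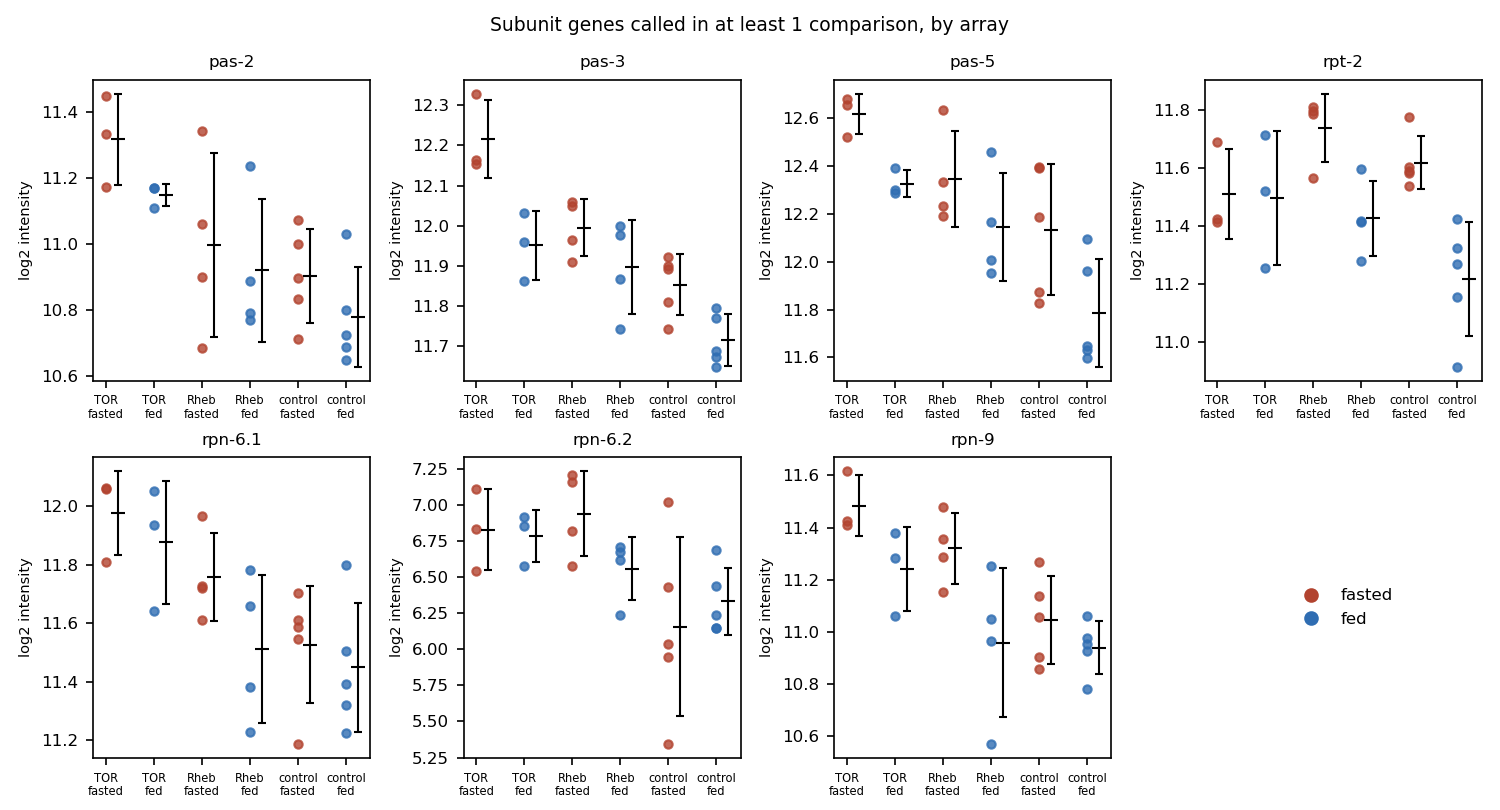
Log2 intensity on each array of the 7 subunit genes called in at least 1 comparison, by group, with points for arrays and bars for the mean ± SD. For pas-5 the fasted TOR RNAi arrays, at 12.52 to 12.68, lie above every fasted control array but not above every fasted Rheb RNAi array, and for rpt-2 the 5 fed control arrays have the lowest mean, at 10.91 to 11.42.

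Core and regulatory genes were set side by side by the medians of their changes. The core median minus the regulatory median was -0.13 under fasting on Rheb RNAi, with medians of 0.11 for the core and 0.24 for the regulatory genes, and the 13 non-ATPase genes at 0.31. It was -0.04 under fasting on TOR RNAi and 0.04 on control RNAi. For the knockdowns it was 0.00 and 0.01 for TOR RNAi in fasted and fed worms, and -0.09 and 0.02 for Rheb RNAi in fasted and fed worms. The order of these values depends on which genes are kept. Leaving out probe sets that may be shared with other sequences (_s_at and _x_at) keeps 3 core and 10 regulatory genes. The 3 core genes include pas-2 and pas-5, whose changes in fasted TOR RNAi worms stayed at 0.41 and 0.48. Over the genes kept, the difference was 0.332 and 0.229 for TOR RNAi in fasted and fed worms, and -0.106 for fasting on Rheb RNAi. On fasted Rheb RNAi arrays the core mean minus the regulatory mean was -0.111 ± 0.122 (SD, n = 4), against 0.0264 ± 0.0619 (SD, n = 5) on fasted control arrays. The highest fasted Rheb RNAi array was at 0.0625, so the groups overlapped. These differences are descriptions, with no test over members.

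Genes that act with the proteasome were followed in lists. Of 6 genes of SKN-1A activation, ddi-1, the protease that cuts SKN-1A, was higher and png-1, the enzyme that removes its sugars, was lower in TOR RNAi worms of both feeding states and in fasted Rheb RNAi worms. ddi-1 was at 0.64 and png-1 at -0.60 in fasted TOR RNAi worms against control (limma's adjusted p = 0.0051 and 0.0076). sel-9 was called higher as well on TOR RNAi, in fasted worms by 0.58, and skn-1 itself was called in none of the 7 comparisons. In all, 2 of the 6 were higher and 1 lower in fed TOR RNAi worms (19.9% and 13.4% of all genes tested). The counts were the same in fasted TOR RNAi worms (14.9% and 10.2%). In fasted Rheb RNAi worms 1 was higher and 1 lower (10.5% and 9.04%). Of 6 measured genes of proteins bound to or feeding the proteasome, dss-1, a small lid subunit that the naming rule leaves out, rose by 0.41 in fasted control worms and was 0.43 higher in fed TOR RNAi worms (limma's adjusted p = 0.040 for each). ubh-4, a deubiquitinase of the regulatory particle, was 0.60 higher in fed TOR RNAi worms (limma's adjusted p = 0.026). Thus 1 of these 6 rose with fasting on control RNAi and 2 in fed TOR RNAi worms (11% and 19.9% of all genes tested). None of the 3 genes for ubiquitin and its activating enzyme was called in the 7 comparisons. Over these, 1.08% to 19.9% of all genes tested rose and 5.16% to 13.9% fell.

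The list of ubiquitin-conjugating enzymes had 2 measured genes, uev-1 and uev-3, both named as variants of such enzymes. Of these, uev-1 was higher in fed Rheb RNAi, fed TOR RNAi and fasted TOR RNAi worms. The changes of uev-1 were 0.37, 0.46 and 0.48, where 19.2%, 19.9% and 14.9% of all genes tested rose. Of 24 cullin and Skp1-related genes, parts of ubiquitin ligases, 10 rose with fasting on control RNAi and none fell (11% and 7.91% of all genes tested), 3 rose and 1 fell on Rheb RNAi (3.23% and 8.67%), and none rose and 1 fell on TOR RNAi (1.08% and 5.16%). Against control, 12 rose and 1 fell in fed TOR RNAi worms (19.9% and 13.4%) and 7 rose and 2 fell in fasted ones (14.9% and 10.2%), while 9 rose and 4 fell in fed Rheb RNAi worms (19.2% and 13.9%) and 1 rose and 2 fell in fasted ones (10.5% and 9.04%). The falls in fasted Rheb RNAi worms were large, at -2.71 for skr-4 and -2.46 for skr-5, and skr-4 also fell with fasting on Rheb and TOR RNAi, by -1.96 and -1.08. skr-8 and skr-9 led in fasted control worms, by 1.46 and 1.58, but they are close paralogs, and how far their probe sets share signal was not tested. cdc-48.1, the AAA ATPase that pulls ubiquitinated proteins out of complexes, was lower in fed Rheb RNAi and fed TOR RNAi worms, by -0.56 and -0.53. Of the 6 measured genes of CDC-48 and its cofactors, 1 and 2 fell there (13.9% and 13.4% of all genes tested). In fasted Rheb RNAi worms 1 of the 6 rose (10.5%). Among 6 genes of the COP9 signalosome, whose subunits are related to those of the lid, csn-5 was higher in fasted TOR RNAi worms, by 0.38 (limma's adjusted p = 0.020), and in fasted Rheb RNAi worms, by 0.30 (limma's adjusted p = 0.050 after rounding). No other gene of that list was called in either comparison, where 14.9% and 10.5% of all genes tested rose. Of the 8 genes of the cytosolic chaperonin CCT none fell in any of the 7 comparisons. Against control, 3 rose in fasted and 5 in fed TOR RNAi worms (14.9% and 19.9% of all genes tested), with cct-5 at 0.98 and 0.88, and 4 rose in fasted and 3 in fed Rheb RNAi worms (10.5% and 19.2%). With fasting 2 rose on control RNAi, 1 on Rheb RNAi and none on TOR RNAi (11%, 3.23% and 1.08%).

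Markers of several tissues moved in the same comparisons. Of 7 intestinal genes, 7 fell under fasting on TOR RNAi, 6 on Rheb RNAi and 4 on control RNAi, against 5.16%, 8.67% and 7.91% of all genes tested. The log2 of their summed intensity was 11.7 to 12.9 in fasted and 15.3 to 15.8 in fed TOR RNAi worms. Of 8 oocyte and eggshell genes, 8 fell in fasted and 6 in fed TOR RNAi worms against control (10.2% and 13.4% of all genes tested). On Rheb RNAi 2 fell in fasted and 5 in fed worms (9.04% and 13.9%), and 1 rose in fed worms (19.2%). The log2 summed intensities were 15.6 to 15.7 in fasted TOR RNAi worms, against 16.1 to 16.5 in fasted control worms. In fed worms 5 of 9 germline genes fell on TOR RNAi and 4 on Rheb RNAi (13.4% and 13.9% of all genes tested), and 7 of 9 neuronal genes rose on either plate (19.9% and 19.2%). Of 12 genes of the zygotic embryo, 4 rose in fasted and 3 in fed TOR RNAi worms (14.9% and 19.9%), and 6 in fasted and 4 in fed Rheb RNAi worms (10.5% and 19.2%). Of 9 body wall muscle genes, 8 rose in fed Rheb RNAi worms (19.2%) and none in fed TOR RNAi worms (19.9%). With fasting 2 fell on TOR RNAi, 5 on Rheb RNAi and 2 on control RNAi (5.16%, 8.67% and 7.91%). On control RNAi 1 muscle gene rose with fasting (11%). Of 5 sperm genes, 3 had means under the filter level of 4 in every group. The part of tissue make-up in the changes of the subunit genes was not tested.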

How the data were processed

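Messenger RNA was read on 24 Affymetrix C. elegans Genome Arrays, 1 per sample, from 5 µg of total RNA each. The deposited values are probe set intensities on a linear scale, made by the authors with GCRMA per the submitters' processing notes (version not given in the sources used here), and the authors name GeneSpring GX 7.3.1. GCRMA makes array distributions alike, so a shift shared by all transcripts is hidden. All columns were used. The number of arrays limits the precision. The design text of the series names independent experiments but does not say which arrays belong together, so p-values measure the spread between samples.

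Intensities were turned into log2 values, and each gene was read by its single-gene probe set of highest mean. The test covered genes above a log2 level of 4 on 3 or more arrays, in limma 3.58.1 (R 4.3.3), with 6 group means fitted to all 24 arrays and Benjamini-Hochberg adjustment within each of 10 comparisons. Symbols came from the platform annotation and were unchanged through Entrez numbers for all 33 members. The script was tested on simulated data.

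The members and lists were chosen with earlier results of these data known. Named with every array value are the 3 members of smallest p in each particle and comparison of 2 groups, and of each list up to 3 genes of smallest p. pbs-1, rpt-6, pbs-7 and the second values of rpn-10 and rpt-2 were added after their values were seen.

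Deviations from group means correlated at 0.440 to 0.734 between fed and fasted arrays of the same number on each plate, and at no less than 0.176 between control and Rheb RNAi arrays, but at -0.378 to 0.283 between TOR RNAi and the others. Same-numbered control and Rheb RNAi arrays, and fed and fasted arrays of a plate, were therefore treated as paired in the alternative fit. Other alternatives were 2 filters, an offset of 16, 2 scalings, 2 variance models, 2 ways to choose probe sets, a fit limited to the compared groups, leaving out each array, and leaving out the 2 arrays of highest 3' to middle difference.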

Additional observations from a re-analysis of the deposited data

Results flagged for a closer look

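In 140 sets of 4 or 5 arrays, 9 had an array far from the others of its group by Dixon's test, which flags about 1 set in 20 by chance. In control RNAi worms, rpt-2 was highest on fasted array 2, at 11.77 against 11.54 to 11.60 on the others. rpn-11 was lowest on fed control array 5, at 10.40 against 10.83 to 10.91. rpt-6 was lowest on fed control array 3, at 9.49 against 10.03 to 10.24.

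In fasted Rheb RNAi worms, array 3 was lowest for pbs-2, at 11.07 against 11.65 to 11.77, and for rpt-2, at 11.56 against 11.79 to 11.81. Its regulatory particle mean was also lowest, at 0.0097 against 0.241 to 0.265. rpt-4 was highest on fasted Rheb RNAi array 4, at 12.04 against 11.53 to 11.57. In fed Rheb RNAi worms, pbs-7 was highest on array 4, at 12.61 against 11.72 to 11.84, and rpn-11 was lowest on array 3, at 10.58 against 10.97 to 11.05.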

How the results depend on the processing

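Counts of called subunit genes were small and moved with the settings, and none of the 3 members of smallest p in each particle and comparison changed the direction of its difference under any of them. The replicate block by number over all plates called 8, 7 and 0 genes under fasting on control, Rheb and TOR RNAi, 6 and 4 for Rheb RNAi in fasted and fed worms, and 14 for TOR RNAi in fasted and in fed worms, where the numbers do not pair. With the TOR numbers as blocks apart the counts were 11, 8 and 0 for fasting and 7 and 7 for Rheb RNAi, and TOR against control RNAi could not be estimated. The block gave no call between responses. With the TOR numbers apart, 22.7% of all genes tested rose under fasting on control RNAi, against 11% without the block. For the block over all plates and the settings below, shares of all genes are not given. These counts show how calls moved with the settings and are no result about the subunit genes alone.

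For TOR RNAi in fed worms, where 2 genes were called, the count was 4 with no filter and with the stricter one, 6 with the offset and with either intensity trend, 5 with the mean of probe sets, and 1 when only the compared groups were fitted and without shared (_s_at and _x_at) probe sets. In fasted TOR RNAi worms, with 5 calls, it was 7 with the stricter filter, 6 with the offset, quantile normalization, either intensity trend and the mean of probe sets, 2 with centred arrays and without shared probe sets, and 0 when only the compared groups were fitted and without the 2 arrays of highest 3' to middle difference, an alternative chosen after seeing the data. Fasting on control RNAi gave 0 with centred arrays. It also gave 0 without shared probe sets, but both rpt-2 probe sets are of that kind, so rpt-2 was not measured there. That setting leaves 13 of the 33 genes in every comparison, and a gene left out could not be called, so its counts cannot be set against the others. Fasting on Rheb RNAi gave 1 with centred arrays and with the mean of probe sets. Rheb RNAi in fed worms gave 1 with either intensity trend, and in fasted worms 0 in a fit of the compared groups.

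Leaving out single arrays gave 1 to 2 calls for fasting on control, 0 to 2 on Rheb and 0 on TOR RNAi. It gave 0 to 1 for Rheb RNAi in fed and in fasted worms, 1 to 5 for TOR RNAi in fed worms and 0 to 8 in fasted worms.

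Core minus regulatory medians without shared probe sets, which leaves 13 members, were 0.0525 for fasting on TOR RNAi, 0.134 for Rheb RNAi in fed worms, 0.332 and 0.229 for TOR RNAi in fasted and fed worms, and -0.221 for the response on Rheb minus control RNAi. With single arrays left out, the core against regulatory particle difference ranged from -0.068 to 0.101 for TOR RNAi in fasted worms.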
